A study of Homo sapiens with 6 samples.

Results

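The genes described here are 58 genes spread along the long arm of chromosome 1, from MCL1 near the centromere to SMYD3 near the telomere, read as a set because neighbouring genes share the copy number of their chromosome. They were measured in glioma cells by 6 oligonucleotide arrays, 2 in each of 3 groups. U87MGR is the highly invasive derivative (arrays labelled U87MGR2 and U87MGR3), U87MGL the non-invasive derivative (U87MGL2 and U87MGL3), and U87MG the parental line, an established glioblastoma line bought from a cell bank. Both derivatives were passed 4 times through the left striatum of 6-week-old BALB/c nu/nu mice, recovered from the dissociated tumour-bearing brain and cultured again; the labels name no gene edit or drug in any group. Replicates are titled as biological, with no mention of separate cultures, and the derivative arrays carry different line numbers. The p-values below therefore measure only the spread between these samples, which may be technical or may be a difference between lines.

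Of the 58 listed genes, 53 had a probe set that carried their symbol alone, and all 53 passed the level filter, a mean log2 signal of 4.73 over the 6 arrays; the other 5 (TPM3, UCK2, MPZL1, RNF2 and FH) were not analysed here. The probe set of each gene was chosen by its mean signal over the 6 arrays, so the levels are a description. They ran from 5.73 for USF1 to 12.6 for SHC1 on the log2 scale. The annotation placed all 53 on the long arm. It splits 14513 tested genes into 637 on this arm, of which 584 were not on the list, 812 on the short arm of the same chromosome, and the remainder elsewhere. The listed genes were also split by position into a proximal segment (MCL1 to UFC1, 21 tested), a middle segment (12 tested, TMCO1 to CDC73) and a distal segment (KDM5B to SMYD3, 20 tested).

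When a chromosome arm is gained or lost, the transcripts of most of its genes tend to move a little in the same direction, because each gene is transcribed from more or fewer templates. Single genes can depart from that trend through their own regulation. Gain of this arm is common in human cancers, and MCL1, CKS1B and MDM4 are among the genes proposed to matter in it. DNA copy number was not measured in the data used here, so the values below are RNA levels only, and in bulk RNA a lower level in every cell cannot be told apart from a loss in some of the cells.

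The arrays were alike in overall level, with medians of 5.29 to 5.35. Vimentin, the intermediate filament of mesenchymal and glial cells, was at 14.4 (VIM, mean over 6 arrays), while the glial markers S100B (3.27) and AQP4 (3.56) lay under the filter and GFAP (5.29), SOX2 (4.90) and OLIG2 (5.14) just above it. The neural marker NES was well above the filter at 8.52 and varied between arrays. It had 8.24 and 9.61 in U87MGR, 8.80 and 8.98 in U87MGL and 8.23 and 7.27 in U87MG. Of the markers of other cells, PTPRC, the leukocyte antigen CD45, lay under it at 4.12, while AIF1 of microglia and macrophages (6.03, highest in U87MGR replicate 2 at 6.59), PECAM1 of endothelium (6.28) and the neuronal genes SYP (6.07) and RBFOX3 (5.34) lay above it. Their part in the results was not tested. In the spiked-in control probe sets both U87MGL arrays lay close to U87MGR replicate 1, and U87MGR replicate 2 lay close to U87MG replicate 1 (distances of 0.882 to 1.41, against 5.56 to 8.83 between other pairs). U87MG replicate 2 stood alone. Differences within these spike-in groups are given after the pooled ones. As a sign of RNA quality, the 3′ minus 5′ difference of GAPDH reached 0.24 on the second U87MGR array, where the remaining 5 arrays had 0.03 to 0.07. The same difference of actin was highest in U87MGL replicate 1 (0.39) and lowest in U87MG replicate 1 (-0.01), with 0.22 to 0.28 in the other 4.

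The comparison of U87MGR with U87MGL asked whether genes along the arm differed between invasive and non-invasive derivatives. The listed genes were higher in U87MGR by a median log2 fold change of 0.17, against 0.00 over all genes tested and 0.01 on the short arm. Of the 53, 40 had a fold change above 0 (50.3% of all genes tested did). The difference lay in the proximal and distal segments, where 19 of 21 and 19 of 20 genes were above 0, with medians of 0.21 and 0.27. In the middle segment 2 of 12 were above 0, and the median was -0.21.

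These differences were small for each gene, and limma called no listed gene (Benjamini-Hochberg adjusted p under 0.05 across all 14513). Over all genes tested, 0.0413% were called higher and 0.117% lower. With unadjusted p below 0.05, 3 listed genes were higher (UBE2Q1, PPP2R5A and ARF1; background 3.91%) and none was lower (background 4.94%). Both U87MGR arrays lay above both U87MGL arrays for 21 listed genes and below them for 3 (background 23.3% in each direction). The 21 genes were 10 proximal and 11 distal ones, and the 3 (PRDX6, XPR1 and STX6) were all middle ones. The median standard error of a fold change was 0.20 for the listed genes, so a shift of this size in one gene is within its error.

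The 584 unlisted genes of the arm had a median of 0.18; the difference between listed and unlisted genes was not tested. Of the unlisted genes 430 were above 0 (73.6%), and both U87MGR arrays lay above both U87MGL arrays for 264 (45.2%). Their segment medians were 0.24 in the proximal, 0.07 in the middle and 0.21 in the distal segment. Among chromosomes with at least 100 tested genes, the medians outside this arm lay between -0.05 and 0.06, except for chromosome 7 at 0.21. No test of the arm against other chromosomes was made.

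**Figure D1:**
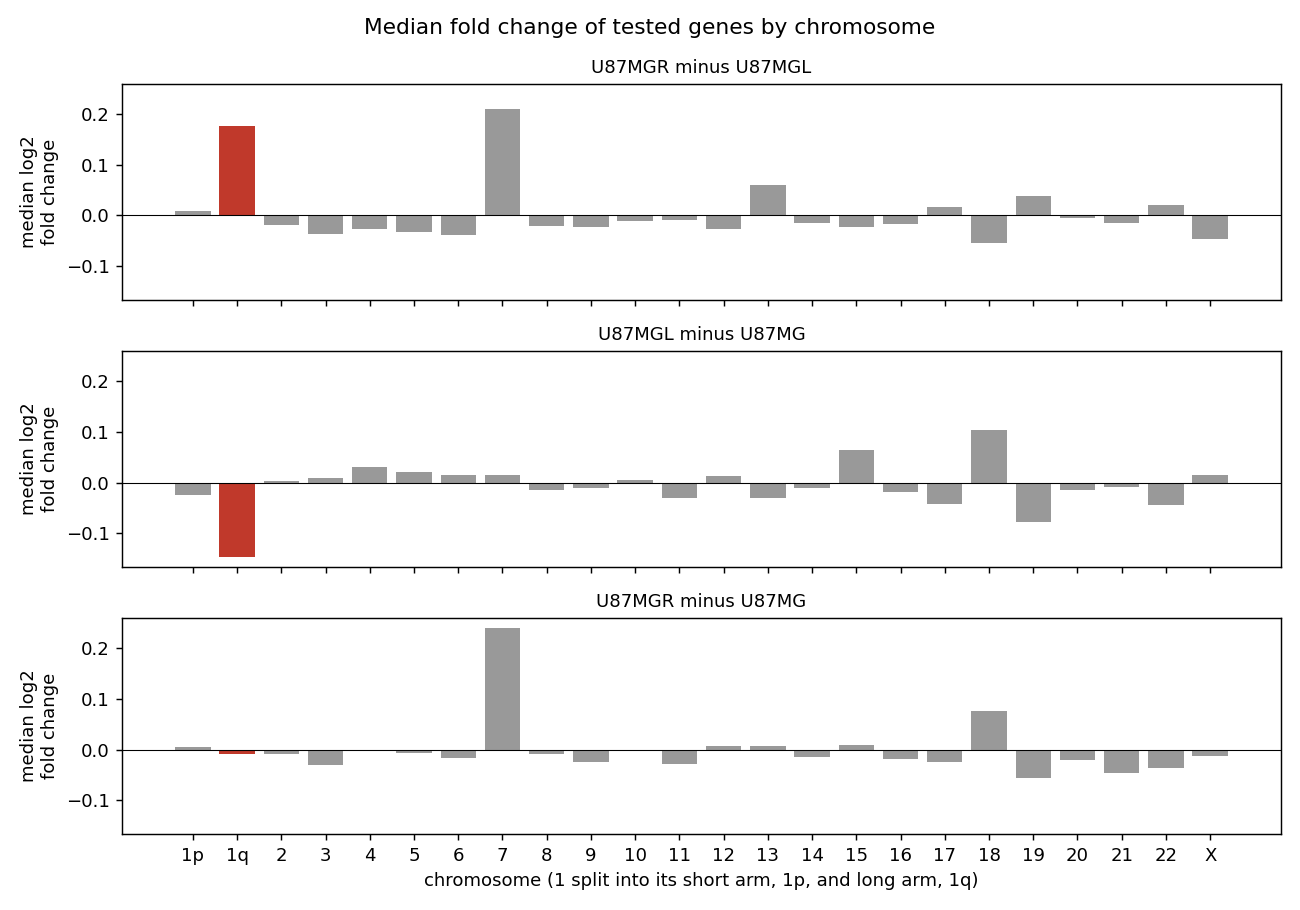
Median log2 fold change of tested genes (vertical axis) for each chromosome (horizontal axis), with chromosome 1 split into short arm (1p) and long arm (1q, red), in the 3 comparisons. The long arm of chromosome 1 stood at 0.18 for U87MGR minus U87MGL, at -0.15 for U87MGL minus U87MG and at -0.01 for U87MGR minus U87MG.

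Along the arm, the running median over 41 neighbouring tested genes was 0.21 at MCL1, 0.25 at JTB and RAB13, and 0.17 at UFC1. It was near 0 from PRDX6 (-0.01) to TOR1AIP1 (-0.01) and reached its lowest value, -0.18, between STX6 and TPR. It returned to 0.19 at KDM5B and reached 0.37, its highest value, between PPP2R5A and IARS2. At CDC73, the last listed gene before KDM5B, it was -0.06.

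**Figure D2:**
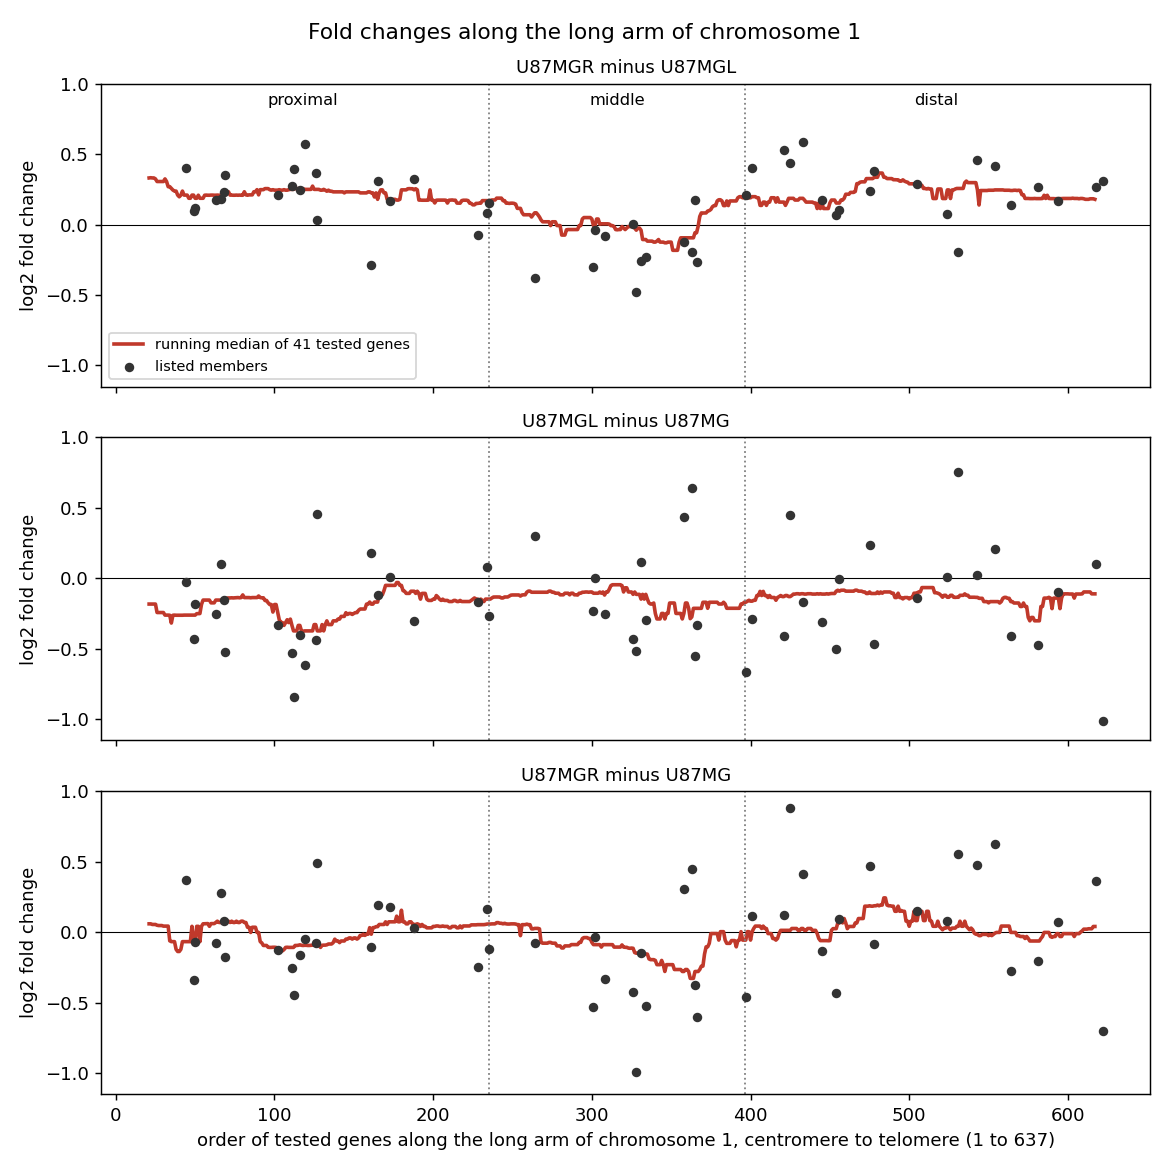
Log2 fold change (vertical axes) of tested genes in their order along the long arm, centromere at the left; black points are the 53 listed genes, the red line is the running median over 41 neighbouring tested genes, and dotted lines part the 3 segments. The line for U87MGR minus U87MGL lies above 0 at both ends of the arm and dips to -0.18 in the middle segment, and that for U87MGL minus U87MG stays below 0, between -0.38 and -0.03.

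Each derivative was also set against the parental line. Against U87MG, the listed genes of U87MGL had a median of -0.23 (all genes tested -0.02, unlisted genes of the arm -0.14, short arm -0.02). The segment medians were -0.25, -0.24 and -0.15 from proximal to distal. Of the 53, 17 were above 0, against 48.1% of all genes tested. Both U87MGL arrays lay below both U87MG arrays for 21 listed genes (background 28.3%) and above them for 7 (background 28.1%). With unadjusted p below 0.05, 12 were lower (background 10.1%) and 1, LBR, was higher (background 13.2%). Over all genes, limma called 1 of the 53 lower (SMYD3) and none higher, near or under the background of 1.80% lower and 3.02% higher.

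Against U87MG, the listed genes of U87MGR had a median of -0.07 (all genes tested -0.01, unlisted genes of the arm 0.00). The proximal and distal medians were -0.07 and 0.11, and the middle median was -0.35. Of the 53, 23 were above 0 (background 49.4%). The arrays did not overlap for 12 listed genes that were higher and 14 that were lower (background 24.2% in each direction), and 7 of the 14 were middle ones. No listed gene passed the limma test over all genes in either direction (background 1.86% higher and 1.44% lower). With unadjusted p below 0.05, 3 were higher (RBBP5, LPGAT1 and ARF1; background 11.0%) and 7 lower (RAB13, PRDX6, TOR1AIP1, QSOX1, STX6, CD55 and SMYD3; background 9.78%). Both comparisons use the same U87MG arrays.

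The replicates of U87MGL differed on this arm. Set against the mean of the U87MG arrays, the median of the listed genes was 0.02 and -0.11 in U87MGR replicates 1 and 2, -0.34 and -0.09 in U87MGL replicates 1 and 2, and 0.03 and -0.03 in the U87MG replicates themselves. U87MGL replicate 1 was thus the lowest array, and replicate 2 lay among the others, no lower than U87MGR replicate 2. U87MGL replicate 1 was also the array with the highest actin 3′ minus 5′ difference, whose part in the result was not tested. For the unlisted genes of the arm the values were 0.00 and -0.02 in U87MGR, -0.21 and -0.13 in U87MGL and 0.03 and -0.03 in U87MG, so there both U87MGL arrays lay below the other 4.

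Single arrays moved the medians accordingly. Without U87MGL replicate 1, the listed genes stood at 0.04 for U87MGR against U87MGL and at -0.09 for U87MGL against U87MG; without U87MGL replicate 2 the values were 0.31 and -0.34. For the unlisted genes the same medians were 0.11 and -0.13 without U87MGL replicate 1, and 0.24 and -0.21 without U87MGL replicate 2. For U87MGR against U87MGL, the proximal median of the listed genes was 0.03 without U87MGL replicate 1 and 0.36 without U87MGL replicate 2. The distal one was 0.17 and 0.39, and the proximal median of the unlisted genes was 0.17 and 0.28. Without U87MGR replicate 1 the listed genes stood at 0.08 against U87MGL, and without replicate 2 at 0.27. The spike-in group shared with U87MGL holds only replicate 1 of U87MGR, so its difference is the one without replicate 2. Within it U87MGR differed by 0.27 over the listed and by 0.20 over the unlisted genes. By segment the listed genes had 0.28, -0.04 and 0.32 there. The group shared with U87MG holds 1 array of each, U87MGR replicate 2 and U87MG replicate 1. There U87MGR differed by -0.10 over the listed and by -0.04 over the unlisted genes. By segment the listed genes had -0.03, -0.42 and -0.006, so the distal median, 0.11 when pooled, was slightly below 0. No spike-in group held both U87MGL and U87MG.

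Among the listed genes the middle segment was lowest in U87MGR replicate 2. Set against the mean of the U87MG arrays, its listed genes had a median of -0.22 and -0.44 in U87MGR replicates 1 and 2 and -0.27 and -0.13 in U87MGL replicates 1 and 2. Without U87MGR replicate 2 the middle median of U87MGR against U87MGL was -0.04, in place of -0.21; this array also had the GAPDH difference of 0.24, whose part in the result was not tested. The unlisted middle genes differed less, with a median of -0.09 for U87MGR against U87MG, where the listed ones had -0.35. For U87MGR against U87MGL the unlisted middle genes had a median of 0.07, with 87 of 149 above 0, where the listed ones had -0.21. The lower middle median in this comparison was thus one of the listed genes and not of the whole segment.

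**Figure D3:**
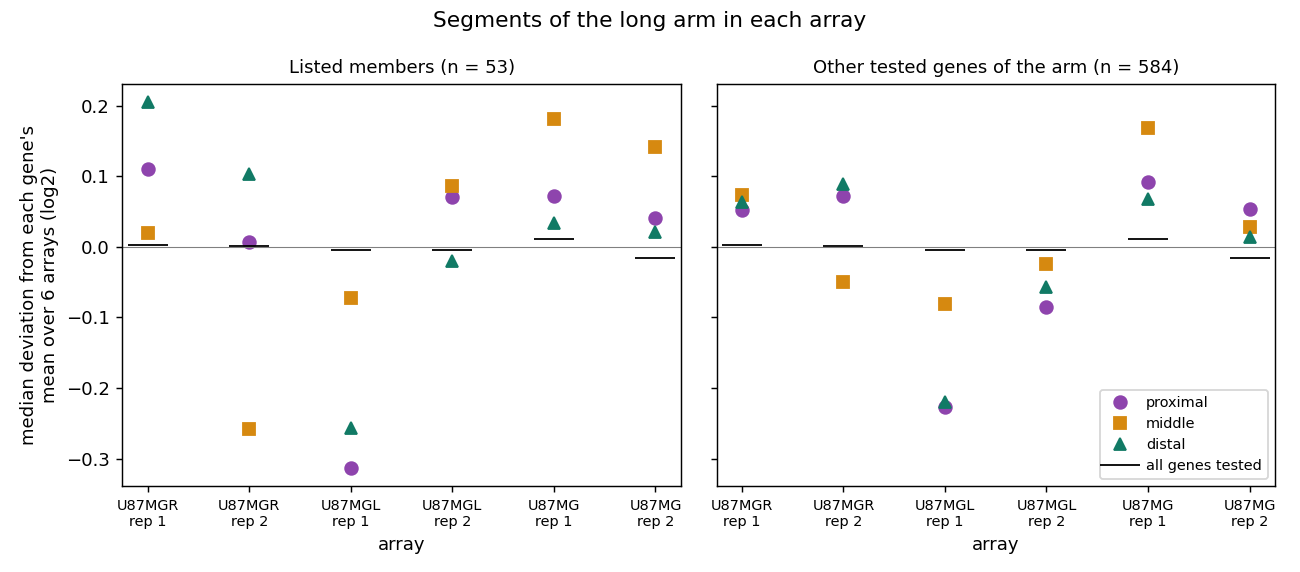
Median deviation of the genes of each segment from their own mean over the 6 arrays (log2, vertical axis) in each array (horizontal axis), for listed and for unlisted genes; black dashes mark all genes tested. The proximal and distal segments are lowest in U87MGL replicate 1, and the middle segment of the listed genes is lowest in U87MGR replicate 2.

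Other probe sets of the same genes, which the choice of the brightest did not use, gave segment medians of the same sign for U87MGR against U87MGL. Of 98 such probe sets, 81 from 34 genes passed the level filter. Their medians were 0.19 in the proximal, -0.31 in the middle and 0.26 in the distal segment, and 63 of the 81 had the sign of the brightest probe set. Over all 81 the median was 0.12, with 47 above 0. With these other probe sets averaged by gene it was 0.059 over the 34 genes, 11 of them middle ones. The brightest probe sets gave 0.17 over all 53 listed genes, a different set. With all probe sets of a gene averaged, the brightest included, the median over the 53 was 0.16. For U87MGL against U87MG the segment medians of the 81 other probe sets stood at -0.25, -0.06 and -0.26. Of the 81, 62 had the sign of the brightest probe set. For U87MGR against U87MG the segment medians of the 81 were -0.10, -0.28 and -0.14. The distal segment was thus below 0 where the brightest probe sets gave 0.11. Over all 81, U87MGR and U87MGL lay below U87MG by similar medians, -0.22 and -0.21. Probe sets of the same gene could disagree: for NUCKS1 the 7 others ran from -1.34 to 0.03 for U87MGL against U87MG.

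The genes of chromatin and transcription included the listed gene that was called. SMYD3, a lysine methyltransferase, had log2 signals of 9.95 and 9.83 in U87MGR, 9.49 and 9.67 in U87MGL and 10.53 and 10.65 in U87MG. The 3 groups did not overlap, and U87MGL was the lowest. SMYD3 fell in U87MGL, being 2.02-fold lower than in U87MG (log2 fold change -1.01, SE 0.16, limma adjusted p = 0.0226, both arrays lower). In U87MGR it was 1.63-fold lower than in U87MG (-0.70, SE 0.16, limma adjusted p = 0.0644), which did not pass. The call was lost without any 1 of the U87MGR, U87MGL or second U87MG arrays (limma adjusted p = 0.0549 to 0.135) and with spike-in groups as a block (0.195 and 0.389), while the fold change stayed between -1.13 and -0.93.

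RBBP5, a core subunit of the MLL/SET1 histone methyltransferases, ran the other way. It had 8.35 and 8.23 in U87MGR, 7.67 and 8.03 in U87MGL and 7.66 and 7.15 in U87MG. Its U87MGL arrays lay above those of U87MG, the nearest by a narrow margin, at a log2 fold change of 0.45 (limma adjusted p = 0.278). Both U87MGR arrays lay above the other 4, at a log2 fold change of 0.88 against U87MG (SE 0.22, limma adjusted p = 0.0814) and 0.44 against U87MGL (limma adjusted p = 0.635). Without U87MG replicate 1 the first of these was 1.14 and passed (limma adjusted p = 0.0399). KDM5B, a histone H3 lysine 4 demethylase, differed by -0.67 between U87MGL and U87MG (limma adjusted p = 0.166), and by 0.21 between U87MGR and U87MGL.

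The upstream DNA of SMYD3, RAB13 and RBBP5 is shown because SMYD3 and RAB13 had the lowest fold changes of U87MGL against U87MG and RBBP5 the highest fold change of U87MGR against U87MG. The sequences are the 250 bases before an annotated start (RefSeq, GRCh38.p14, minus strand), at chr1:246507280-246507529, chr1:153986340-153986589 and chr1:205121979-205122228, printed 5′ to 3′ along the gene. For SMYD3 and RAB13 the more upstream of 2 annotated starts was taken. Capitals mark GC boxes, GGGCGG on either strand.
SMYD3: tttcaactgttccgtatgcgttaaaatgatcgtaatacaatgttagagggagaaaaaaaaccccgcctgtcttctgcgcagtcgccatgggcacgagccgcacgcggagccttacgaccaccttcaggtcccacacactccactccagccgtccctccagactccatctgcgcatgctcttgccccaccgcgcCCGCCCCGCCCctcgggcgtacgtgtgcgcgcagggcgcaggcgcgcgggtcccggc
RAB13: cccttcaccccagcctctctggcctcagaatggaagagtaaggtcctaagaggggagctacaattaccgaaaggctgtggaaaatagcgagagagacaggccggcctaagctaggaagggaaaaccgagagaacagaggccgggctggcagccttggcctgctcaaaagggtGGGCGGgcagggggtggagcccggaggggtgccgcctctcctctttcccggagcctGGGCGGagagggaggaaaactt
RBBP5: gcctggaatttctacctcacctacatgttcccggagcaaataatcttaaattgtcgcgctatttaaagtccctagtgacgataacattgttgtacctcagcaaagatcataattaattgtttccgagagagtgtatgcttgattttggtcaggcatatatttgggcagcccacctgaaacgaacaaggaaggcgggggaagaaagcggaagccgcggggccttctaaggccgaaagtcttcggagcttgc

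SMYD3 and RAB13 each held 2 GC boxes, those of SMYD3 sharing a base, and RBBP5 held none. Such windows were found for 46 of the 53 genes. Of their 71 windows 60.6% held GGGCGG, against 59.9% of the windows of all tested genes. CACGTG, the E-box that USF1 binds, was in 7.04% against 7.96%, CCAAT in 36.6% against 32.4%, and TATAAA in 1.41% (1 window) against 6.59%. These are counts of letters on both strands and not of bound sites.

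No other chromatin gene was called. Between U87MGL and U87MG, POGZ, which binds heterochromatin protein 1, differed by -0.53, ARNT, the partner of hypoxia-inducible factor alpha subunits, by -0.43, SETDB1, a histone H3 lysine 9 methyltransferase, by -0.18, USF1 by -0.17, CDC73, a subunit of the PAF1 complex, by -0.33 and ARID4B, of the SIN3 corepressor, by -0.10. NUCKS1, a chromatin-binding kinase substrate, had 11.34 and 11.58 in U87MGR, 10.84 and 10.91 in U87MGL and 10.45 and 11.63 in U87MG. It had the largest listed difference between U87MGR and U87MGL (0.58, SE 0.35, limma adjusted p = 0.683), and its U87MG arrays spanned both groups. In all, 9 of 10 genes of this group were below 0 for U87MGL against U87MG, and 8 of 10 were above 0 for U87MGR against U87MGL. Over all 53 listed genes, 36 were below 0 in the first comparison and 40 above 0 in the second. Both comparisons use the same U87MGL arrays, with opposite sign, so these counts are not separate results.

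Genes of survival and the cell cycle were all above 0 for U87MGR against U87MGL (7 of 7, median 0.28), with none called. All 7 were proximal or distal, segments where 19 of 21 and 19 of 20 listed genes were above 0. MDM4, an inhibitor of p53, had 7.62 and 8.08 in U87MGR, 7.19 and 7.45 in U87MGL and 7.45 and 8.01 in U87MG; its log2 fold change of 0.53 against U87MGL had an SE of 0.25 (limma adjusted p = 0.608). MCL1, which blocks apoptosis, differed by 0.40 and PARP1, an enzyme of DNA repair, by 0.46. HAX1, which limits apoptosis at mitochondria, differed by 0.24, JTB, which acts in cytokinesis, by 0.28 and DEDD, a death effector domain protein, by 0.08. CKS1B, a cofactor of cyclin-dependent kinases, had 11.80 and 11.14 in U87MGR, 11.25 and 11.63 in U87MGL and 11.10 and 10.86 in U87MG. Both derivatives lay above U87MG, by 0.49 and 0.46 (limma adjusted p = 0.336 and 0.331), and they differed from each other by 0.03.

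Among genes of protein folding and turnover, UBE2Q1, a ubiquitin-conjugating enzyme, had 10.54 and 10.76 in U87MGR, 9.85 and 10.31 in U87MGL and 10.58 and 10.82 in U87MG. U87MGL was below all arrays of the other groups, by 0.57 on the log2 scale relative to U87MGR (SE 0.21, limma adjusted p = 0.489). The other probe sets of UBE2Q1, with lower mean signals of 6.3 and 6.2, gave 0.22 and 0.12 in this comparison. For U87MGL against U87MG they gave 0.01 and 0.04, where the brightest gave -0.62. UCHL5, a deubiquitinase bound to the proteasome, had 8.98 and 8.83 in U87MGR, 8.91 and 9.29 in U87MGL and 8.91 and 8.01 in U87MG, so its difference of 0.64 between U87MGL and U87MG rested on U87MG replicate 2. The proteasome subunits PSMD4 and PSMB4 differed by -0.25 and -0.15 between U87MGL and U87MG, and the chaperonin subunit CCT3 by 0.01. The conjugating enzyme UFC1 differed by -0.27, CACYBP, a partner of ubiquitin ligases, by -0.25 and the ligase adaptor KLHL20 by 0.00.

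Partner subunits encoded on other arms offer a comparison within a complex. Of 30 such proteasome genes 26 were tested, with a median of 0.29 for U87MGL against U87MG and 23 of 26 above 0. The same 26 had a median of -0.12 for U87MGR against U87MGL, with 6 above 0, where PSMD4, PSMB4 and UCHL5 had 0.17, 0.23 and -0.19. The 6 tested partners of CCT3 had medians of 0.27 (6 of 6 above 0) and -0.07, where CCT3 had 0.01 and 0.17. For the PAF1 complex the 5 partners of CDC73 had a median of 0.21 for U87MGL against U87MG, all above 0, where CDC73 had -0.33. For U87MGR against U87MGL partners and CDC73 were both below 0, at -0.17 (1 of 5 above 0) and -0.27. For U87MGR against U87MG the proteasome partners had a median of 0.15 (22 of 26 above 0). Those of CCT3 had 0.18 there (5 of 6 above 0) and those of CDC73 0.12 (4 of 5 above 0). limma called no partner in these 3 lists. For U87MGL against U87MG, the partners of RBBP5 in MLL/SET1 complexes had a median of 0.01 (6 genes) and those of ARID4B in the SIN3 corepressor 0.03 (10 genes). The BCL2 family and the complement regulators are lists of related genes and not single complexes. In the same comparison the 10 tested BCL2 family genes on other arms had a median of -0.16. The 2 tested complement regulators on other arms had opposite signs, CD59 at 0.33 and CFI at -1.05. In the BCL2 family PMAIP1, which binds MCL1, rose (1.19, SE 0.21, limma adjusted p = 0.0284). Polycomb repressive complex 1 had no listed gene with a value, and its 9 tested genes on other arms had a median of -0.06.

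At the nuclear envelope and pore the listed genes parted. LBR, the lamin B receptor, had 9.94 and 9.32 in U87MGR, 9.61 and 10.04 in U87MGL and 9.32 and 8.82 in U87MG. It was the highest listed gene for U87MGL against U87MG (log2 fold change 0.75, SE 0.28, limma adjusted p = 0.171). NUP133, a scaffold nucleoporin, differed by -0.41 and TOR1AIP1, an inner nuclear membrane protein, by -0.43, while LMNA, which encodes lamins A and C, differed by -0.12 and the basket protein TPR by 0.43. TPR had 8.29 and 9.81 in U87MG, a wider spread than its difference. The 10 tested pore partners on other arms had a median of 0.49 in this comparison (9 above 0), and the 8 lamina partners one of 0.50 (6 above 0), with none called. For U87MGR against U87MG the same partners also had medians above 0, at 0.35 (9 above 0) and 0.30 (6 above 0).

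Of the secretory and lipid genes, RAB13, a small GTPase of traffic to cell junctions, had 12.22 and 12.26 in U87MGR, 11.76 and 11.93 in U87MGL and 12.48 and 12.88 in U87MG. The groups did not overlap. It was 1.79-fold lower in U87MGL than in U87MG (log2 fold change -0.84, SE 0.19, limma adjusted p = 0.0517), just short of the threshold, and 1.36-fold lower in U87MGR (limma adjusted p = 0.236). QSOX1, a secretory sulfhydryl oxidase of the middle segment, had 8.59 and 7.81 in U87MGR, 8.55 and 8.81 in U87MGL and 9.40 and 8.98 in U87MG. It was 1.99-fold lower in U87MGR than in U87MG, the largest such difference of the list (SE 0.29 on the log2 scale, limma adjusted p = 0.109).

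No gene of this group was called by limma over all genes. For U87MGR against U87MG, STX6, a SNARE of the trans-Golgi network, differed by -0.53, SSR2, of the translocon-associated complex, by -0.11, TMCO1, an ER membrane protein, by -0.08, and the desaturase DEGS1, of ceramide synthesis, by 0.08. The Golgi kinase PI4KB differed by 0.28, the acyltransferase LPGAT1 by 0.47 and ARF1, a GTPase of Golgi coats, by 0.63. LPGAT1 was called higher (0.83, limma adjusted p = 0.0315) when all its probe sets were averaged.

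GLRX2, a mitochondrial glutaredoxin, had 10.07 and 9.87 in U87MGR, 9.61 and 9.98 in U87MGL and 10.20 and 10.48 in U87MG. Both derivatives lay below U87MG, by -0.37 and -0.55 on the log2 scale (limma adjusted p = 0.339 and 0.161). PRDX6, a peroxiredoxin, differed from U87MG by -0.53 in U87MGR and -0.23 in U87MGL, and IARS2, the mitochondrial isoleucyl-tRNA synthetase, by 0.15 and -0.14.

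Signalling and surface genes were mostly above 0 for U87MGR against U87MGL (6 of 7, median 0.17), as were the listed genes as a whole (40 of 53). ADIPOR1, an adiponectin receptor, differed by 0.40, PPP2R5A, a regulatory subunit of protein phosphatase 2A, by 0.38, SHC1, an adaptor of receptor tyrosine kinases, by 0.36 and the p38 target kinase MAPKAPK2 by 0.17. CD46 and CD55, complement inhibitors, differed by 0.10 and 0.07, and the phosphate exporter XPR1 by -0.26. Every other probe set of MAPKAPK2 (-0.29 and -0.02), CD55 (-0.11 and -0.08) and CD46 (-0.09 and -0.08) was below 0 in this comparison. Those of SHC1 (0.12) and XPR1 (-0.29) kept their sign. The RNA-handling genes TSNAX, HNRNPU, PRCC and ILF2 differed by 0.26, 0.27, 0.33 and 0.21.

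**Figure D4:**
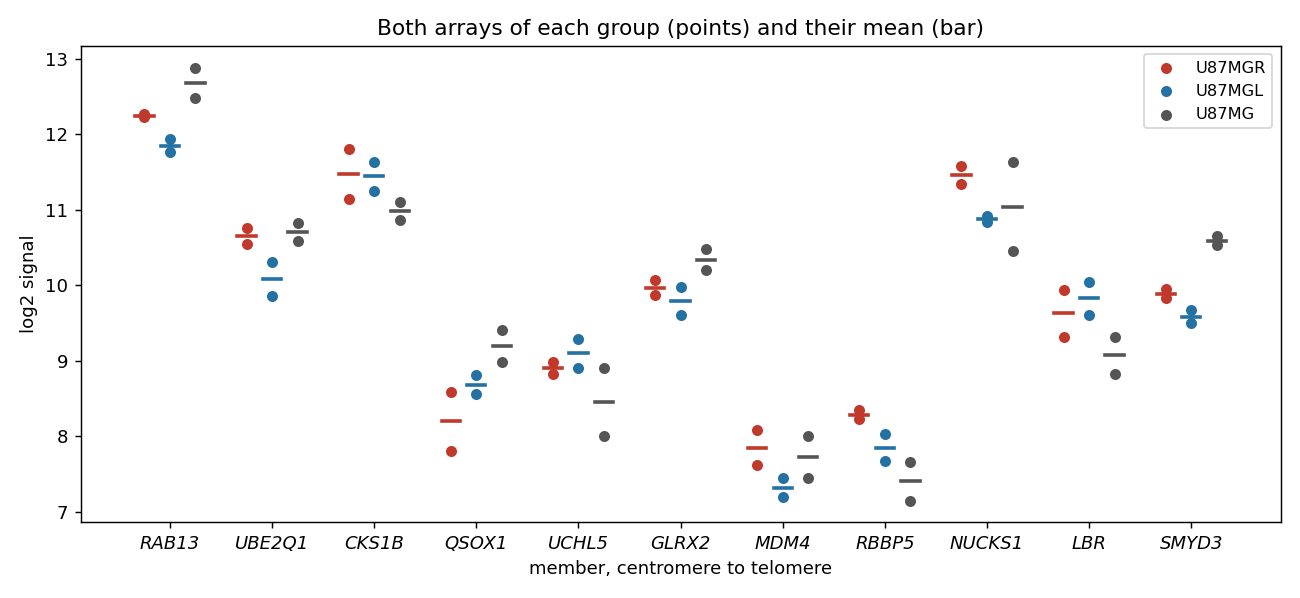
Log2 signal (vertical axis) of the 11 listed genes given in full, in order along the arm; points are the 2 arrays of U87MGR (red), U87MGL (blue) and U87MG (grey), and bars are their means. The groups of SMYD3, of RAB13 and of RBBP5 do not overlap, and QSOX1 has its lowest mean in U87MGR, whose arrays overlap those of U87MGL.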

How the data were processed

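The authors deposited log2 signals of 54675 probe sets for 6 one-colour arrays of biotin-labelled cRNA; background correction and normalization between arrays are not given in the sources used here. No further transformation was applied. Probe sets with 1 gene symbol in GEO's platform annotation (41097; 1801 had several and 11777 none) were used, with symbols updated by gene number through RefSeq (GRCh38.p14), which also gave gene order; the arm starts after the widest gap between gene starts. Each gene took its brightest probe set and was tested if its mean reached the 40th percentile. limma 3.58.1 (lmFit, eBayes; R 4.3.3) was fitted with group means to all 14513 genes, two-sided, with Benjamini-Hochberg adjustment; precision is limited by having 2 arrays a group. The pipeline was tested on simulated data. Listed genes, role groups and complex lists were chosen with earlier results of these data known. Genes given in full were, by rule, called members, the extremes of each segment against U87MG, and the 3 largest differences where a comparison called none. Alternatives covered normalization, filter, probe set, prior, blocks and single arrays.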

Additional observations from a re-analysis of the deposited data

How the results depend on the processing

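Values that left out 1 array are given as ranges. For U87MGR against U87MGL no listed gene was called under any of the 17 alternatives with a test, and the median stayed between 0.04 and 0.31 over 19. For U87MGR against U87MG, 1 gene was called higher (LPGAT1) and 1 lower (SMYD3) with the mean of probe sets, 0 to 1 was higher without 1 array (RBBP5), where the median ran from -0.11 to 0.02, crossing 0 without U87MGR replicate 2, and the median was -0.25 with the other probe sets of the listed genes, an alternative chosen after seeing the data. For U87MGL against U87MG, 2 genes were called lower (SMYD3 and RAB13) after centring on tested genes, with the filter at the 60th percentile, with the mean of probe sets and with an intensity trend. There were 0 with only the 2 groups compared, with either spike-in block (the block of 3 spike-in groups leaves U87MG replicate 2 out of the fit) and without probe sets ending in _s_at or _x_at, where SMYD3 has no probe set left. Without 1 array the counts ran from 0 to 2 lower and from 0 to 1 higher (UCHL5), and the median from -0.34 to -0.088. With the block of 2 spike-in groups the median was -0.38. No setting turned the direction of the medians of U87MGR against U87MGL or of U87MGL against U87MG. Several settings could not move the U87MGR against U87MGL median, which stayed at 0.17. These were no filter, an intensity trend, the replicate block, only the 2 groups compared and leaving out either U87MG array. Both spike-in blocks, leaving out U87MGR replicate 2 and the difference within the shared spike-in group all gave it the same 0.27. Equally numbered arrays correlated at 0.01, 0.11 and -0.09 after group means were removed, so the numbers were not taken as pairs; with the replicate block limma called 0 higher and 1 lower for U87MGL against U87MG (SMYD3, -1.01, limma adjusted p = 0.0367) and none in the other comparisons. The cause of the moved values was not tested.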
